A study of Mus musculus with 18 samples.

Results

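The 10 genes described here, Fos, Fosb, Jun, Junb, Jund, Egr1, Egr2, Nr4a1, Atf3 and Ier2, encode transcription factors of the AP-1, Egr and Nr4a families and the related early response proteins Atf3 and Ier2. They were chosen by symbol, and not by their values, from 19938 genes that have a probe set with a single gene symbol. Each of the 10 had exactly 1 such probe set, and all 10 were tested, since no filter on low values was applied. NK cells expressing the receptor NKp46 were sorted from spleens of 6-week-old ICR mice, labelled as male or female, and their RNA was measured on 18 Mouse Gene 1.0 ST arrays. The mice were Runx3 -/- (KO) or Runx3 +/+ (WT), and all of them, WT included, had received 2 injections of IL15/Ra complexes, a long-acting form of interleukin-15, with 2 days between the injections. From each genotype 3 subsets were sorted by 2 surface markers of maturation: CD27+CD11b- cells (CD27), CD27+CD11b+ cells (DP) and CD27-CD11b+ cells (CD11b). Each of the 6 groups has 3 arrays. No mice without the injections are among these arrays, so that a gene's level before interleukin-15 is not analysed here. The labels do not say whether the arrays of a group came from separate mice or from pools, so the p-values below measure the spread between these samples, which may in part be technical.

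Immediate early genes are transcribed within minutes of a signal, from promoters that are bound by factors already in the cell, and their products then act on later genes. Fos proteins pair with Jun proteins to form AP-1, while Junb and Jund can form AP-1 dimers of other strength than Jun. Egr proteins are zinc finger factors and Nr4a1 is an orphan nuclear receptor, and both are known in lymphocytes as readouts of antigen receptor signalling. In NK cells the same genes respond to activating receptors and to cytokines, and they are also well known to rise when tissue is dissociated and cells are sorted. All NK cells analysed here had passed through enrichment and sorting.

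Values are log2 intensities as deposited, normalised by the authors with RMA. A difference of 1 between groups is a 2-fold difference in signal, and levels of different probe sets are not compared. The median SD within groups was 0.11 and the correlation between pairs of arrays was 0.960 to 0.995. Runx3 itself was at 10.73 to 11.46 in KO, against 11.39 to 11.85 in WT (fell by 0.55 averaged over the subsets, limma adjusted p = 0.000116), and the genotypes did not overlap within any subset. Transcript was still measured on all KO arrays, and the labels do not say which part of Runx3 is deleted. The NK marker Ncr1, which encodes NKp46, was at 13.45 to 13.77 in KO and 13.63 to 13.81 in WT, and the sorting markers Cd27 and Itgam (CD11b) followed the gates in both genotypes. Some KO arrays stood apart. Lyz2, a gene of macrophages and neutrophils, was at 7.96, 5.02 and 12.27 in replicates 1, 2 and 3 of CD11b KO, against 5.02, 5.32 and 5.04 in CD11b WT, and the antigen presentation gene Cd74 was at 6.97, 5.30 and 11.68 in CD11b KO, against 5.12, 5.26 and 5.17 in CD11b WT. Xist, which is expressed from the inactive X chromosome of females, was at 5.13 to 5.69 on the arrays of KO replicates 1 and 2 and WT replicate 1. It was at 12.48 to 13.00 on those of KO replicate 3 and WT replicates 2 and 3. Eif2s3y, a Y chromosome gene, was at 11.02 to 11.15 on the arrays with low Xist and at 4.86 to 5.53 in WT replicate 3. In CD27, DP and CD11b it was at 6.83, 8.54 and 9.1 in KO replicate 3, and at 6.44, 8.12 and 7.23 in WT replicate 2. The arrays with high Xist are therefore not alike in this gene, and whether some hold male cells was not tested. The arrays of KO replicate 3, and the CD11b KO arrays of replicates 1 and 3, were left out in turn, and values without them are given beside results that they moved. The second setting leaves 1 CD11b KO array and so has less power. A call lost there does not show that the difference came from the arrays left out.

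Jun was the gene of this group that passed the test between the genotypes averaged over the subsets, and it was lower in KO. In the main fit Jun passed in no single subset. The averaged call was also lost once each genotype and replicate number was reduced to its mean. In CD27 cells Jun was at 5.08, 5.38 and 5.46 in KO, against 6.11, 6.17 and 6.92 in WT. In DP cells it was at 5.21, 5.11 and 5.43 in KO, against 5.97, 5.69 and 6.52 in WT. In CD11b cells it was at 5.16, 5.77 and 6.26 in KO, against 6.18, 6.99 and 6.50 in WT. All KO arrays lay below all WT arrays in CD27 and in DP, and in CD11b only replicate 3 of KO overlapped the lowest WT array. Of the 9 KO arrays, 7 were lower than every WT array of any subset. Jun's protein product is the AP-1 subunit with the strongest transactivation among the Jun proteins.

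Averaged over the 3 subsets, Jun fell by 0.91 on the log2 scale in KO, which is 1.88-fold (95% interval 1.46 to 2.43-fold, limma adjusted p = 0.00504). Jun exceeded 6.33, the median of the probe set means, on 4 of the 18 arrays, all of them WT, so that the KO values lie in the lower range of the array, where the deposited table carries no detection call. It was the 1 of 10 genes that passed the adjusted threshold of 0.05 in this comparison, in which 8.08% of the 35399 probe sets passed and 5.28% were called lower, so that a count of 1 in 10 is near the background. Within single subsets the test did not pass. The difference was -1.09 in CD27 (2.13-fold, 95% interval 1.37 to 3.32-fold, adjusted p = 0.119), -0.81 in DP (1.75-fold, adjusted p = 0.378) and -0.83 in CD11b (1.77-fold, adjusted p = 0.238), by limma. None of the 10 genes was called in a single subset, where 0.907%, 0.395% and 1.29% of all probe sets were called in CD27, DP and CD11b. At an unadjusted p under 0.05, 1, 2 and 3 of the 10 genes passed in CD27, DP and CD11b, against 11.6%, 9.64% and 13.0% of all probe sets. Because the samples are bulk RNA, less Jun RNA per cell and fewer cells that express it cannot be told apart.

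The size of the Jun difference was stable, while its call rests on counting the 3 arrays of a genotype and replicate number as separate. The labels do not say whether such arrays came from the same mice, and taking them as 1 sample is inferred from these data. With each of the 18 arrays left out in turn, the averaged difference ranged from -1.0 to -0.82 and passed the threshold each time. When the 3 arrays that share a genotype and replicate number were averaged first, Jun was at 5.15, 5.42 and 5.72 in the KO samples, against 6.08, 6.28 and 6.65 in the WT samples, which do not overlap. The difference was again -0.91 but did not pass across all probe sets (limma adjusted p = 0.181), and an exact two-sided permutation of 3 samples against 3 cannot give a p below 0.1. Without the arrays of KO replicate 3 the averaged difference was -1.05 (limma adjusted p = 0.00571), and without the CD11b KO arrays of replicates 1 and 3 it was -0.90 (limma adjusted p = 0.0162). Among the arrays with low Xist, Jun was at 5.08 to 5.77 in KO, against 5.97 to 6.18 in WT, and the mean difference over the subsets was -0.80. Among the arrays with high Xist it was at 5.43 to 6.26 in KO, against 5.69 to 6.99 in WT, with a mean difference of -0.75. The sign was negative in each subset of both classes, where the classes hold 1 or 2 samples a genotype and carry no test.

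**Figure D1:**
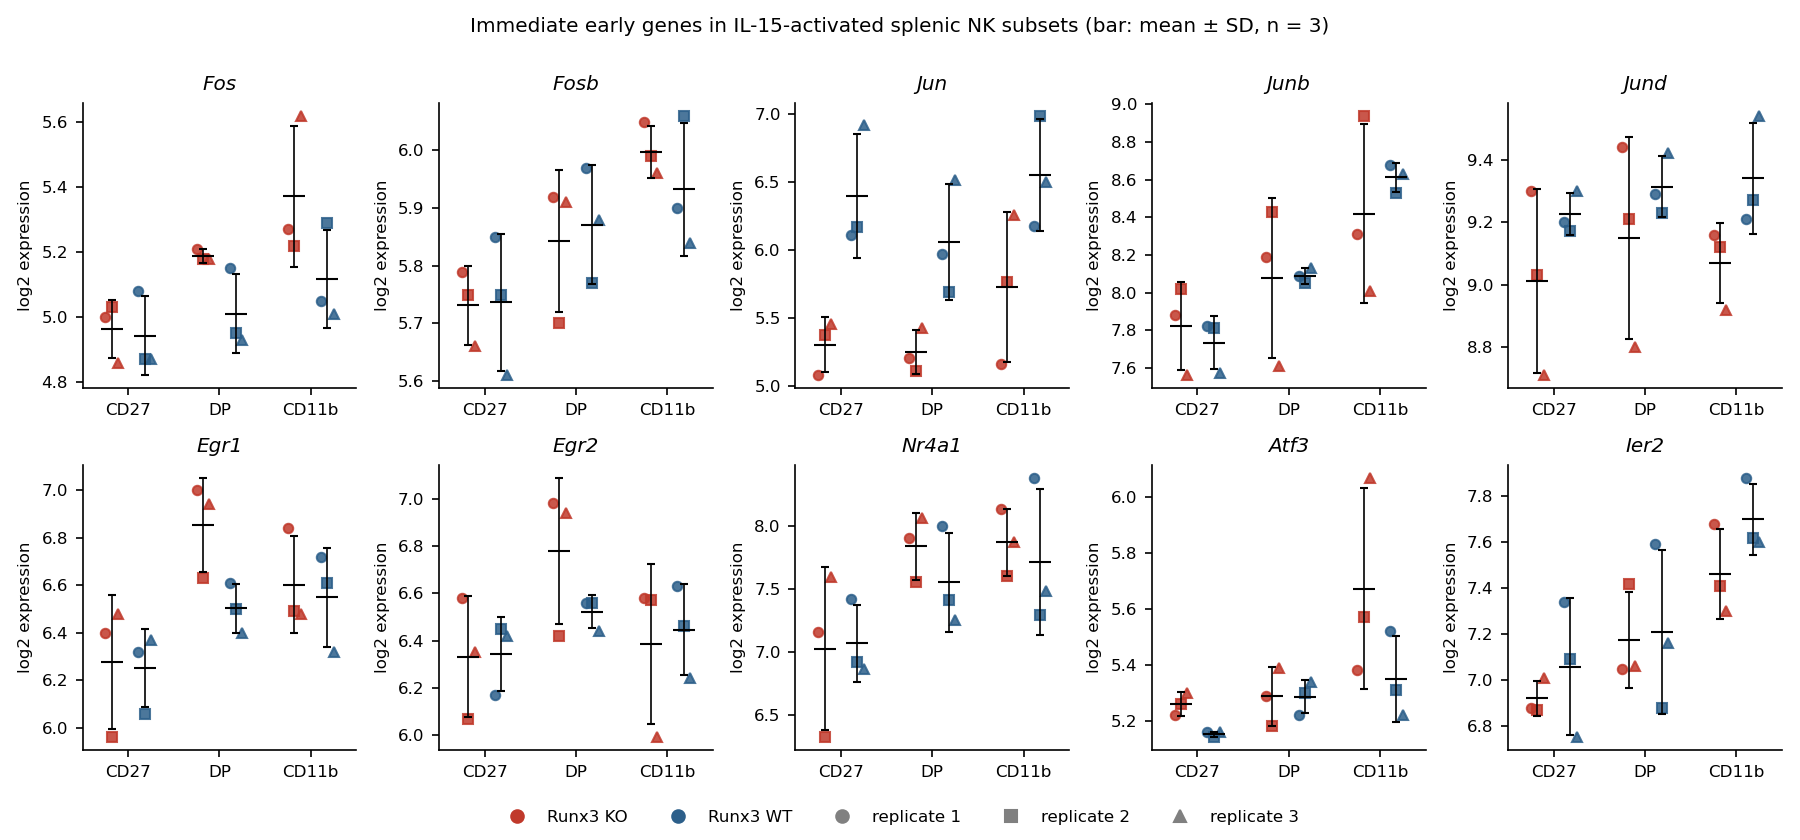
The log2 intensity of each of the 10 immediate early genes on all 18 arrays, with 1 panel per gene, KO left of WT within each subset, points for single arrays (circle, square and triangle for replicates 1, 2 and 3), and a horizontal bar with whiskers for the mean and SD of 3 arrays. Jun shows the KO points below the WT points in CD27 and DP, while the other genes show overlapping or nearly overlapping groups in most subsets.

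Other measures moved with genotype on the same arrays. Of 20 cell cycle genes measured, all 20 had a difference above 0 in every subset, and 10 rose in KO averaged over subsets, where 8.08% of all probe sets were called. Without the arrays of KO replicate 3, 14 rose and 1 fell, and without the CD11b KO arrays of replicates 1 and 3, 4 rose. The list median was 1.88 with all arrays and 0.84 without KO replicate 3. Their mean level was 7.54 to 10.48 in CD27 KO, against 7.10 to 7.22 in CD27 WT, was 7.89 to 10.81 in DP KO, against 7.09 to 7.17 in DP WT, and was 8.11 to 10.49 in CD11b KO, against 7.28 to 7.33 in CD11b WT. The mean of 11 T cell genes was 7.44 to 7.53 in CD27 KO, against 7.78 to 8.13 in CD27 WT, and among them Cd3e, a chain of the T cell receptor complex, fell by 3.00 in CD27 KO (limma adjusted p = 0.0179). In DP, where Jun differed by -0.81, the same T cell mean was 7.01 to 7.19 in KO, against 7.19 to 7.26 in WT, and in CD11b it was 6.84 to 7.15 in KO, against 6.67 to 6.84 in WT. The mean of 11 genes of the integrated stress response, which are induced with Atf3 under amino acid or protein folding stress, was 7.05 to 7.38 in CD27 KO, against 7.0 to 7.08 in CD27 WT. It was 7.09 to 7.36 in DP KO, against 7.0 to 7.10 in DP WT, and 7.19 to 7.48 in CD11b KO, against 7.08 to 7.15 in CD11b WT, without overlap in CD11b. The part of other cells, of proliferation and of this stress response in the Jun difference was not tested.

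The promoters of Jun and Junb are shown because these 2 genes passed the test, Jun between the genotypes and Junb between the subsets. They are the 250 bases before the annotated start, on the coding strand, from RefSeq on GRCm38.p6. The Jun promoter is at chr4:95052223-95052472 and the Junb promoter at chr8:84978749-84978998, both on the minus strand. Capitals mark the motif matches that were found, TGACATCA in Jun and TGACG in Junb.
Jun: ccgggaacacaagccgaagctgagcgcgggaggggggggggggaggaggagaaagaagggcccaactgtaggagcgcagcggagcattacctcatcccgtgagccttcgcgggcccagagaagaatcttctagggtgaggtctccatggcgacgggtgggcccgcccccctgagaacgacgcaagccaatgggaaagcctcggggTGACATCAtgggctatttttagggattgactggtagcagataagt
Junb: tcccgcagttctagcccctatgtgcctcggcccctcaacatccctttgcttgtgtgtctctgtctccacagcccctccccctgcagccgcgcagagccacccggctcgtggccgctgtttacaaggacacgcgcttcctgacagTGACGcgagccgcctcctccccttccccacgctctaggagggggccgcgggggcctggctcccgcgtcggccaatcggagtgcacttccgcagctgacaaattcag
The variant AP-1 site TGACATCA lies at positions -45 to -38 of the Jun promoter. It is known as an element through which AP-1 acts on Jun itself, so its match there is no new finding. Of 32841 promoters of this length, 2.93% hold it on either strand. The shorter CRE core TGACG lies at positions -106 to -102 of the Junb promoter and in 17.8% of all promoters. Of the 10 genes, 8 had a promoter in the table, and TGACG was found in 6 of them, which were Fos, Fosb, Junb, Egr2, Nr4a1 and Atf3. The Runx motif TGTGGT, found in 14.0% of all promoters, had no match in any of the 8. The canonical AP-1 site TGANTCA (6.75% of promoters) and the full CRE TGACGTCA (1.55%) had no match either. The Egr motif GCGNGGGCG (4.70%) was found in Fosb and Nr4a1, the TATA motif TATAAA (12.4%) in Fos, and the CArG box, the motif of the serum response factor (1.47%), in Egr2, which has 5 promoter entries. All motifs were searched on both strands, and TGACG lies within TGACGTCA. The GC content was 61.2% for Jun and 66.4% for Junb, against a median of 52.4% over all promoters.

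Of the other AP-1 subunits among the 10 genes, none passed the test between KO and WT. Junb, a Jun protein that can restrain Jun, was at 7.56 to 8.94 over the 9 KO arrays, against 7.57 to 8.68 over the 9 WT arrays, with an averaged difference of -0.04 (95% interval -0.31 to 0.23). Jund, the Jun protein present in most resting cells, was at 8.71 to 9.44 in KO, against 9.17 to 9.54 in WT. Its averaged difference was -0.22 (limma adjusted p = 0.189). The 3 lowest Jund values were those of KO replicate 3, at 8.71 in CD27, 8.80 in DP and 8.92 in CD11b. Without that replicate the Jund difference was -0.08.

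Fos, the partner of Jun in AP-1, was at 4.86 to 5.62 in KO, against 4.87 to 5.29 in WT, on every array below the median of the probe set means, so that the limit given for Jun holds here too. In CD11b cells Fos was at 5.27, 5.22 and 5.62 in KO, against 5.05, 5.29 and 5.01 in WT. The groups overlapped, and the difference of 0.25 (limma adjusted p = 0.330) was 0.13 without CD11b KO replicate 3, the array with the highest Fos value and the highest Lyz2 and Cd74. In DP cells the Fos groups did not overlap, with 5.18 to 5.21 in KO and 4.93 to 5.15 in WT (difference 0.18, limma adjusted p = 0.639). Fosb, likewise below that median on every array, was at 5.66 to 6.05 in KO, against 5.61 to 6.06 in WT. Its averaged difference was 0.01 (95% interval -0.09 to 0.11).

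Egr1 and Egr2, zinc finger factors of the MAP kinase response, did not pass either. In DP cells Egr1 was at 7.0, 6.63 and 6.94 in KO, against 6.61, 6.50 and 6.40 in WT. The 3 KO arrays lay above the 3 WT arrays, but the difference of 0.35 (1.28-fold) did not pass (limma adjusted p = 0.495). In CD27 and CD11b the Egr1 groups overlapped, with differences of 0.03 and 0.05. Egr2 was at 5.99 to 6.98 in KO, against 6.17 to 6.63 in WT, and the differences were -0.01 in CD27, 0.26 in DP and -0.06 in CD11b.

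Nr4a1 had the widest range of the 10 genes, at 6.32 to 8.13 in KO, against 6.86 to 8.38 in WT. Its averaged difference was 0.13, with a 95% interval of -0.28 to 0.54. The sign depended on the samples. On the arrays with low Xist the mean difference was -0.49, and on those with high Xist it was 0.64. Ier2, a small nuclear protein induced by growth signals, was at 6.87 to 7.68 in KO, against 6.75 to 7.88 in WT, with an averaged difference of -0.14 (limma adjusted p = 0.523).

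Atf3, a stress-induced factor of the ATF family, was at 5.38, 5.57 and 6.07 in CD11b KO, against 5.52, 5.31 and 5.22 in CD11b WT. The difference of 0.32 did not pass (limma adjusted p = 0.306), and it was 0.12 without CD11b KO replicate 3, the array with the highest Atf3 value. In CD27 cells the Atf3 groups did not overlap, with 5.22 to 5.30 in KO and 5.14 to 5.16 in WT, but the difference was 0.11 (limma adjusted p = 0.869). Atf3 was below the median of the probe set means on every array, so that the limit given for Jun holds here too. Over the single subsets the groups did not overlap for Jun (lower) and Atf3 (higher) in CD27, for Jun (lower) and Fos and Egr1 (higher) in DP, and for Jund (lower) in CD11b. Among all probe sets, 10.7% were lower without overlap in CD27, 8.53% in DP and 11.2% in CD11b, and 5.66%, 6.07% and 7.50% were higher.

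**Figure D2:**
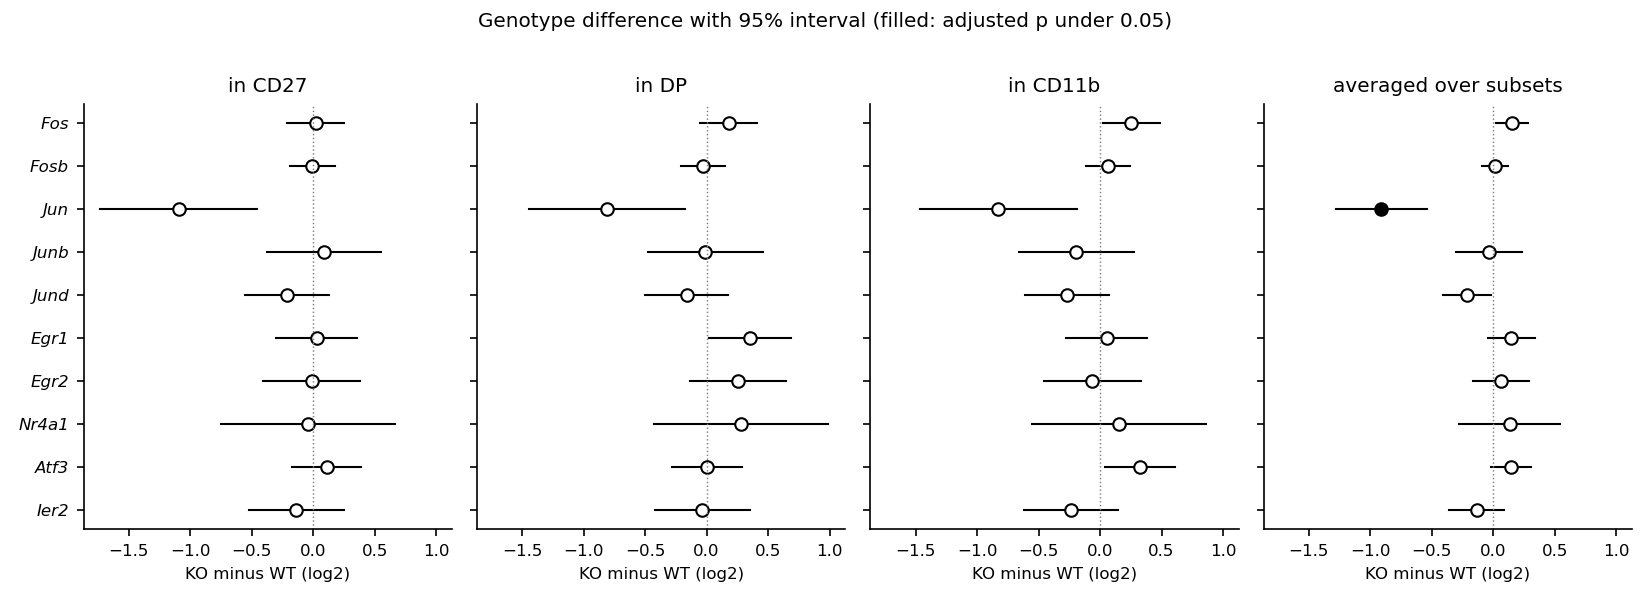
The difference KO minus WT of each gene on the log2 scale, in each subset and averaged over the subsets, with 95% intervals from limma. Jun lies below 0 in all 4 estimates, at -1.09, -0.81, -0.83 and -0.91, and the averaged estimates of the other 9 genes lie between -0.22 and 0.15.

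The median difference of the 10 genes was 0.04 averaged over subsets, beside -0.02 for all probe sets, with 6 of the 10 above 0. The effect of genotype was not shown to differ between subsets for any of the 10. In limma's moderated F test of the interaction the lowest unadjusted p was 0.248, for Atf3, all adjusted p were 1.0, and 0.0113% of all probe sets passed, 4 in number. The mean deviation of an array from its group mean over the 10 genes was between -0.11 and 0.10. WT replicate 1 was above its group mean in all 3 subsets, by 0.05 in CD27, 0.10 in DP and 0.08 in CD11b, and had the highest value of its group for 6, 5 and 6 of the 10 genes there. KO replicate 1 deviated by 0.06 in CD27, 0.07 in DP and -0.002 in CD11b, with the highest value for 3, 5 and 6 genes. The same count over all probe sets was not made.

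Between the subsets, all 10 genes were higher in CD11b than in CD27 cells, in KO and in WT alike, counting differences above 0. Of all probe sets, 38.5% had a difference above 0 in both genotypes. Among the 10 genes, Fos, Fosb, Jun and Atf3 lie on average below the median of the probe set means. The count depended on the arrays, and without the arrays of KO replicate 3 Jund differed by -0.02 in KO. With single arrays left out, the lowest difference was -0.09 for Jund and -0.08 for Egr2 in KO, and -0.06 for Jun in WT. The median difference of the 10 genes was 0.41 in KO and 0.20 in WT, beside 0.02 for all probe sets in each genotype. In the fit without pairing Junb alone passed in WT, as 1 of 10 genes where 5.0% of all probe sets were called and 2.88% called higher. In KO none of the 10 passed, where 2.07% of all probe sets were called, although 6 of the 10 had an unadjusted p under 0.05, against 13.0% of all probe sets.

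Junb was at 8.31, 8.94 and 8.01 in CD11b KO, against 7.88, 8.02 and 7.56 in CD27 KO. In WT it was at 8.68, 8.53 and 8.63 in CD11b, against 7.82, 7.81 and 7.57 in CD27. The subsets overlapped in KO by 1 array and did not overlap in WT. The WT difference was 0.88 (1.84-fold, 95% interval 1.33 to 2.54-fold, limma adjusted p = 0.0306), and the KO difference 0.60 (1.51-fold, limma adjusted p = 0.219). With any 1 of the 6 WT arrays left out, the WT call was lost (limma adjusted p from 0.0625 to 0.122), with a difference between 0.80 and 0.92. The KO difference was between 0.34 and 0.80, with 0.34 when CD11b KO replicate 2 was left out.

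The labels do not say that arrays with the same genotype and number share mice. These arrays deviated together, so the subsets were also compared within pairs. In this fit 3 of the 10 genes rose in CD11b over CD27 in each genotype, and they were Junb, Nr4a1 and Ier2 both times. Of all probe sets, 3.65% were called higher in KO and 6.33% in WT. Junb differed by 0.60 in KO (1.51-fold, 95% interval 1.29 to 1.78-fold, limma adjusted p = 0.00776) and by 0.88 in WT (1.84-fold, 1.56 to 2.16-fold, limma adjusted p = 0.000447). In each genotype it was higher in 3 of 3 pairs. With the sample as a random replicate block, whose correlation is estimated, the 3 KO calls were lost (limma adjusted p = 0.0695 for Junb, 0.0964 for Nr4a1 and 0.0678 for Ier2), as was Nr4a1 in WT (limma adjusted p = 0.165), and Junb and Ier2 in WT still passed (limma adjusted p = 0.00497 and 0.0189). Without KO replicate 3 the paired KO call of Ier2 was lost (0.67, limma adjusted p = 0.0864), and Junb and Nr4a1 passed. Without the CD11b KO arrays of replicates 1 and 3, which leaves 1 KO pair, Junb alone passed in KO (0.84, limma adjusted p = 0.0401), and Nr4a1 (1.08, limma adjusted p = 0.0912) and Ier2 (0.39, limma adjusted p = 0.515) did not. Junb also rose in CD11b over DP in WT, by 0.52 (1.44-fold, limma adjusted p = 0.0293 in the paired fit), where 1.39% of all probe sets were called higher.

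Nr4a1 was at 8.13, 7.60 and 7.87 in CD11b KO, against 7.16, 6.32 and 7.59 in CD27 KO. In WT it was at 8.38, 7.29 and 7.48 in CD11b, against 7.42, 6.92 and 6.86 in CD27. Replicates of a group differed by more than 1 at the widest, while every pair moved upward. The paired difference was 0.84 in KO (1.79-fold, 95% interval 1.39 to 2.32-fold, limma adjusted p = 0.0143) and 0.65 in WT (1.57-fold, 1.21 to 2.03-fold, limma adjusted p = 0.0318). In the fit without pairing the size depended on single arrays, and with 1 array left out at a time it was 0.49 to 1.13 in KO, lowest without CD27 KO replicate 2, and 0.32 to 0.86 in WT, lowest without CD11b WT replicate 1.

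Ier2 was at 7.68, 7.41 and 7.30 in CD11b KO, against 6.88, 6.87 and 7.01 in CD27 KO. In WT it was at 7.88, 7.62 and 7.60 in CD11b, against 7.34, 7.09 and 6.75 in CD27. The subsets did not overlap in either genotype. The paired difference was 0.54 in KO (1.46-fold, limma adjusted p = 0.0483) and 0.64 in WT (1.56-fold, limma adjusted p = 0.0146).

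**Figure D3:**
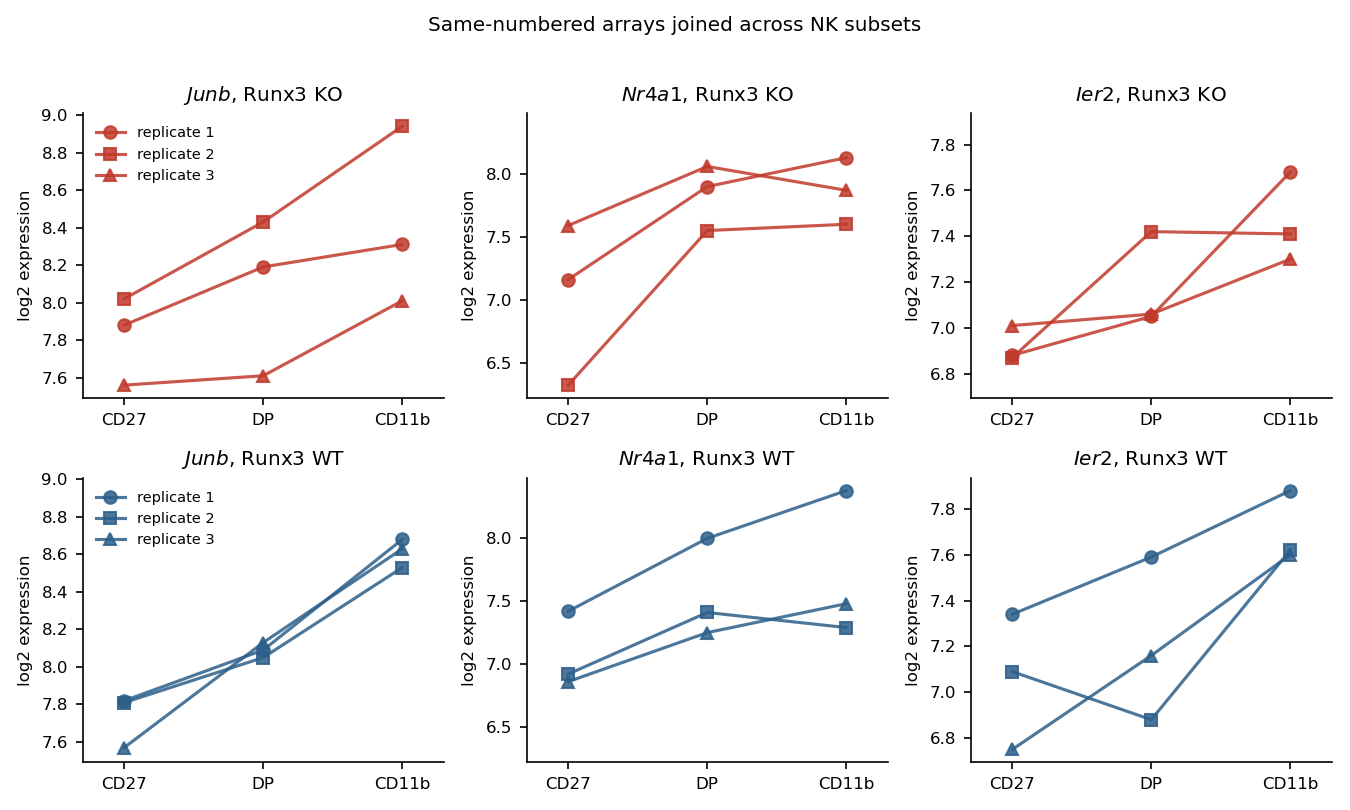
The log2 intensity of Junb, Nr4a1 and Ier2 along the subsets CD27, DP and CD11b, in KO (upper row) and WT (lower row), with a line joining the arrays of 1 replicate number. Every line ends higher in CD11b than in CD27, and several lines of Nr4a1 and Ier2 are level or fall at 1 of the 2 steps.

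The remaining 7 genes did not pass between CD11b and CD27 in the fit without pairing or in the paired fit. In KO, Fos passed with the random replicate block (limma adjusted p = 0.0355) and with array weights (limma adjusted p = 0.0467), and Atf3 without CD11b KO replicate 1 (limma adjusted p = 0.049). Fos differed by 0.41 in KO and 0.18 in WT, Fosb by 0.27 in KO and 0.20 in WT, and Atf3 by 0.41 in KO and 0.20 in WT. For Fos and Atf3 the KO value again rests in part on CD11b KO replicate 3, and without the arrays of KO replicate 3 it was 0.23 for each. Jun differed by 0.42 in KO and 0.16 in WT, and its KO value was likewise 0.23 without the arrays of KO replicate 3, and 0.16 without CD11b KO replicate 3 alone. Jund differed by 0.06 in KO and 0.11 in WT, Egr1 by 0.32 in KO and 0.30 in WT, and Egr2 by 0.05 in KO and 0.10 in WT.

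The intermediate DP subset did not hold the highest level for most genes. Between DP and CD27 none of the 10 passed in KO or WT, where 0.0198% of all probe sets were called in KO and 0.557% in WT. Between CD11b and DP none passed in the fit without pairing, where 0.514% were called in KO and 0.525% in WT. In KO, Egr1 was at 7.0, 6.63 and 6.94 in DP, against 6.40, 5.96 and 6.48 in CD27, without overlap, a difference of 0.58 (limma adjusted p = 0.417, and 0.0848 in the paired fit). The WT difference of Egr1 was 0.25. Egr1 and Egr2 had their highest group mean in DP KO, Fos, Fosb, Nr4a1 and Atf3 theirs in CD11b KO, and Jun, Junb, Jund and Ier2 theirs in CD11b WT.

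In the full order of the 6 group means, Jun ran from CD11b WT through CD27 WT, DP WT, CD11b KO and CD27 KO down to DP KO, over a span of 1.31, the widest of the 10. Junb ran from CD11b WT through CD11b KO, DP WT, DP KO and CD27 KO down to CD27 WT, over a span of 0.88. The arrays of neighbouring groups overlapped in every step for Jun and Junb, so that these arrays do not settle the order of neighbours. Steps without overlap were found below CD11b KO for Fos and below CD27 KO for Atf3. Neighbours in such an order are the groups with the closest means. The share of steps without overlap over all probe sets was not counted, so no result is read from them.

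Some CD11b KO arrays had high levels of genes that mark other cell types, and the CD11b WT arrays did not. The mean of 10 neutrophil genes was 5.28 to 9.51 in CD11b KO, against 5.18 to 5.23 in CD27 KO, and was 5.22 to 5.30 in CD11b WT, against 5.23 to 5.31 in CD27 WT. The mean of 11 dendritic cell and MHC class II genes was 6.32 to 9.31 in CD11b KO, against 6.33 to 6.90 in CD27 KO, and was 6.22 to 6.30 in CD11b WT, against 6.26 to 6.53 in CD27 WT. T cell genes went the other way between the subsets. Their mean was 6.84 to 7.15 in CD11b KO, against 7.44 to 7.53 in CD27 KO, and 6.67 to 6.84 in CD11b WT, against 7.78 to 8.13 in CD27 WT, and 2 of 11 fell in KO and 4 in WT, with 3 in KO without KO replicate 3 and none without the CD11b KO arrays of replicates 1 and 3. Their part in the subset differences was not tested.

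The relatives of these genes were read from lists chosen by function. For every list, calls averaged over subsets count the 3 arrays of a genotype and replicate number as separate, as for Jun. With the random replicate block 1587 probe sets passed in that comparison, against 2862 in the main fit. The list genes were not followed in that fit. Of 18 other AP-1 and ATF genes, 1 fell in CD11b KO and none changed in CD27 or DP. It was Jdp2, a repressor that binds Jun proteins, with a fall of 0.64 (1.56-fold, limma adjusted p = 0.0362), which did not pass without KO replicate 3 (-0.56, limma adjusted p = 0.147) or without the CD11b KO arrays of replicates 1 and 3 (-0.34). Averaged over subsets, where 8.08% of all probe sets were called, 4 fell in KO and 1 rose, and the list median was -0.08, beside -0.02 for all probe sets. The 4 were Jdp2, which fell by 0.59 (adjusted p = 0.000476), Fosl2, a Fos protein, which fell by 0.48 (adjusted p = 0.0116), Mafk, a small Maf protein, which fell by 0.34 (adjusted p = 0.00945), and Batf, an AP-1 factor of lymphocytes, which fell by 0.29 (adjusted p = 0.0362), all by limma. Mafg, another small Maf protein, rose by 0.25 (limma adjusted p = 0.0109). Without KO replicate 3, Fosl2 (limma adjusted p = 0.0547) and Batf (limma adjusted p = 0.176) did not pass, and without the CD11b KO arrays of replicates 1 and 3 Jdp2 alone of these 5 passed (-0.49, limma adjusted p = 0.00583). Between CD11b and CD27 none of the 18 changed in either genotype.

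Of 36 other immediate early genes, 5 fell and 2 rose in KO averaged over subsets, and 29 did not pass, beside 8.08% of all probe sets called. Without KO replicate 3, 4 fell and 4 rose, and without the CD11b KO arrays of replicates 1 and 3, 3 fell and 1 rose. Btg1, which restrains proliferation, fell by 0.65 in CD27 (limma adjusted p = 0.0447). Plk3, a stress-responsive kinase, rose by 0.70 in DP (limma adjusted p = 0.0453), and Per1, a clock gene, rose by 0.53 in CD11b (limma adjusted p = 0.0264). Without KO replicate 3, Plk3 in DP (limma adjusted p = 0.15) and Per1 in CD11b (0.43, limma adjusted p = 0.0794) did not pass. Btg1 in CD27 did not pass without the CD11b KO arrays of replicates 1 and 3 (limma adjusted p = 0.0591), and Per1 in CD11b did not either (0.36, limma adjusted p = 0.918). The list median was -0.02, as for all probe sets. In CD11b over CD27 cells the other 2 Nr4a genes changed in KO. Nr4a3 rose by 1.40 (2.63-fold, limma adjusted p = 0.00506) and Nr4a2 by 0.79 (1.72-fold, limma adjusted p = 0.00408). Both passed without KO replicate 3. Without the CD11b KO arrays of replicates 1 and 3 they were 1.10 for Nr4a3 (limma adjusted p = 0.13) and 0.64 for Nr4a2 (limma adjusted p = 0.192). In KO 3 of the 36 rose and 1 fell between these subsets, where 2.07% of all probe sets were called, and in WT 4 rose and 4 fell, where 5.0% were called. The 4 of these with the largest change in WT were Bhlhe40, a repressor of the basic helix-loop-helix class, at 1.09, Klf2, a factor of lymphocyte quiescence and trafficking, at 0.85, Zfp36l1, an mRNA decay factor, at -0.78, and Sgk1, a kinase, at 0.72.

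Among 28 genes that act upstream of the immediate early genes or feed back on them, Dusp1 had the largest genotype difference. It encodes a phosphatase that inactivates MAP kinases, including the kinases of Jun. Dusp1 was at 9.57, 9.04 and 9.41 in CD27 KO, against 7.59, 7.36 and 6.84 in CD27 WT, and the groups did not overlap in any subset. It rose by 2.08 in CD27 (4.21-fold), 2.38 in DP (5.21-fold) and 2.09 in CD11b (4.25-fold), with limma adjusted p between 0.000506 and 0.000952. Map3k8, a kinase of the MAP kinase cascade, fell by 0.56 in CD27 (limma adjusted p = 0.0158) and by 0.58 in CD11b (limma adjusted p = 0.00839). Without the CD11b KO arrays of replicates 1 and 3 Map3k8 differed by -0.42 in CD11b. That fit leaves 1 CD11b KO array, and no call is read from it. Without KO replicate 3 Dusp1 passed in each subset. Averaged over subsets, 5 of the 28 fell in KO, 2 rose and 21 did not pass, beside 8.08% of all probe sets called, and without the CD11b KO arrays of replicates 1 and 3, 3 fell and 1 rose. Among the 5 was Srf, the serum response factor, which fell by 0.18 (limma adjusted p = 0.0332) and did not pass without KO replicate 3 (limma adjusted p = 0.157) or without the CD11b KO arrays of replicates 1 and 3 (limma adjusted p = 0.205).

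Of 23 genes known as targets of these factors in lymphocytes, 5 rose, 3 fell and 15 did not pass in KO averaged over subsets, beside 8.08% of all probe sets called. Without KO replicate 3, 6 rose and 1 fell, and without the CD11b KO arrays of replicates 1 and 3, 4 rose and none fell. Gzmb, which encodes granzyme B, rose by 2.05 in CD27 (4.15-fold, limma adjusted p = 0.000375), and Il10 rose by 1.93 in DP (3.82-fold, limma adjusted p = 0.0208). Cish, a feedback inhibitor of cytokine signalling, rose by 0.79 in CD27 and by 0.55 in DP, where it did not pass without KO replicate 3 (limma adjusted p = 0.0801). None of the 23 passed in CD11b. In CD11b over CD27 cells of WT, 3 rose and 5 fell, among them Tnfsf10 (TRAIL) at -3.11, Tnf at -2.34, Gzmb at 2.29 and Il2ra at -2.05. In KO none rose and 4 fell, which were Il2ra at -2.81, Tnfsf10 at -2.27, Icos at -1.20 and Cish at -0.78. Icos did not pass without KO replicate 3 (limma adjusted p = 0.208), and Icos and Cish did not without the CD11b KO arrays of replicates 1 and 3 (limma adjusted p = 0.472 and 0.128).

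**Figure D4:**
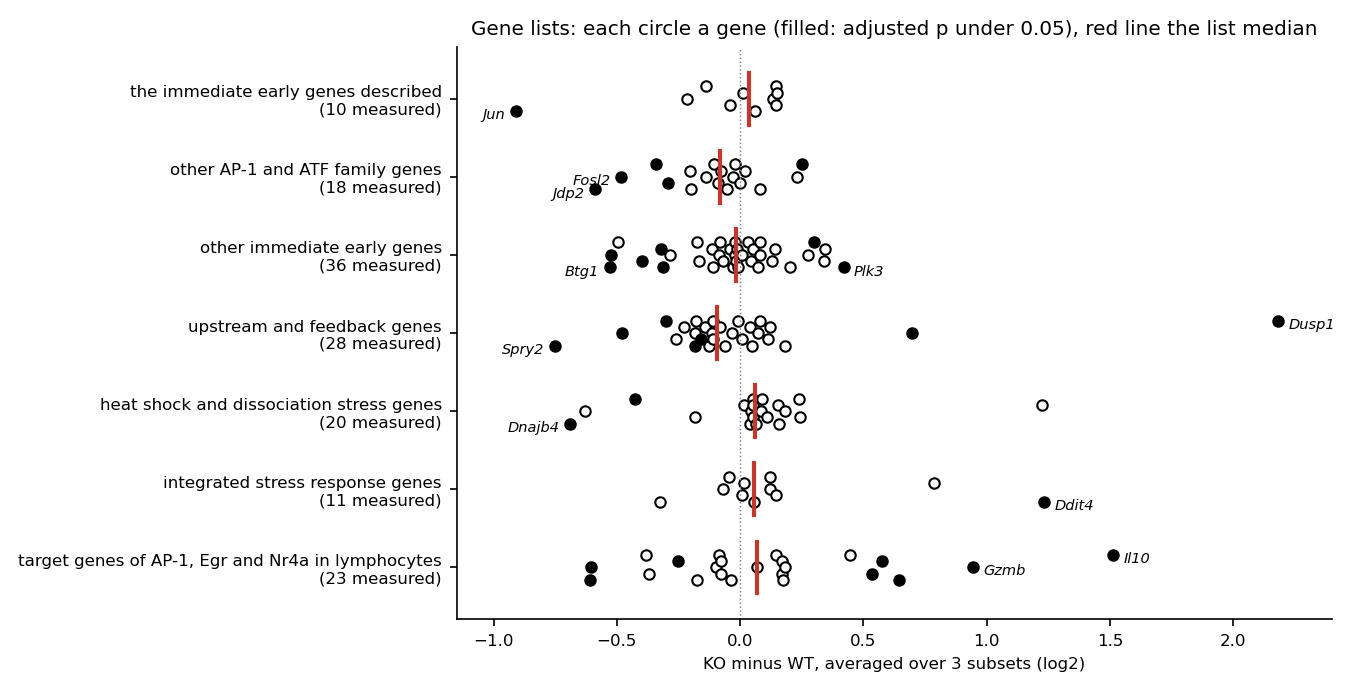
The difference KO minus WT averaged over subsets (log2) for every measured gene of the 10 immediate early genes and 6 related lists, with filled circles for genes past the adjusted threshold and a red line at each list median. Jun is the filled circle of the top row at -0.91, Dusp1 lies at 2.18, and the list medians lie near 0.

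Genes that respond to tissue dissociation and heat shock were read as a measure of handling. The list does not hold Dusp1, which was counted above with the upstream genes. Dusp1 rose in KO by 2.08 in CD27, 2.38 in DP and 2.09 in CD11b. Of the 20 genes measured on the handling list, none passed between KO and WT in CD27 or DP. In CD11b 1 fell, Dnajb4, a co-chaperone, by 1.11 (2.15-fold, limma adjusted p = 0.00494), and none rose. It was -0.81 without the CD11b KO arrays of replicates 1 and 3 (limma adjusted p = 0.188). Averaged over subsets 2 of the 20 fell in KO and none rose, beside 8.08% of all probe sets called. They were Dnajb4, by 0.69 (limma adjusted p = 0.000739), and Bag3, another co-chaperone, by 0.43 (limma adjusted p = 0.00822). Without the CD11b KO arrays of replicates 1 and 3 Bag3 did not pass (limma adjusted p = 0.0715), and without KO replicate 3, 2 fell and 1 rose. The list medians were 0.06, 0.07 and 0.07 in CD27, DP and CD11b. The mean level of the list was 8.31 to 8.78 in CD27 KO, against 8.31 to 8.48 in CD27 WT, was 8.39 to 8.55 in DP KO, against 8.36 to 8.51 in DP WT, and was 8.34 to 8.73 in CD11b KO, against 8.38 to 8.53 in CD11b WT, so that the genotypes overlapped in each subset. Hspa1a, a heat shock gene with a strong stress response, was at 4.79 to 5.35 in KO, against 4.84 to 4.97 in WT. The value of 5.35 was that of CD11b KO replicate 3, the array with the highest Lyz2. All Hspa1a values lie below the median of the probe set means, so that the limit given for Jun holds here too. Zfp36, an immediate early mRNA decay factor, was at 9.45 to 9.91 in KO, against 9.59 to 9.93 in WT, and passed in no comparison.

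Between CD11b and CD27 the same 20 genes gave 1 rise and no fall in KO, and 2 rises and 1 fall in WT. Zfand5, a zinc finger gene of proteasome regulation, rose by 0.56 in KO (limma adjusted p = 0.00313) and by 0.74 in WT (limma adjusted p = 0.000177), and its KO call was lost without the CD11b KO arrays of replicates 1 and 3 (0.57, limma adjusted p = 0.109). Dnajb4 rose by 1.10 in WT and Socs3, a feedback inhibitor of cytokine signalling, fell by 0.71. The list medians were 0.00 in KO and 0.04 in WT, below those of the 10 immediate early genes at 0.41 in KO and 0.20 in WT. Of 11 genes of the integrated stress response, none passed in a single subset between the genotypes or between CD11b and CD27. Ddit4, an inhibitor of mTORC1 signalling, rose by 1.23 in KO averaged over subsets (limma adjusted p = 0.00235). Like the other averaged calls, it counts arrays of a genotype and replicate number as separate. The labels give the same handling for all cells, which does not show that the groups were sorted together or for equal times. No unsorted cells were measured here, and the part of handling in the levels of these genes was not tested.

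The genes most like the immediate early genes in profile were sought by the root mean square difference between gene-centred log2 values over the 18 arrays. For the mean of the 10 genes, whose own root mean square was 0.17, they were Ide at 0.05, Arf1 at 0.07, Edem3 at 0.08, and Sypl, Rabep1 and Erp44 at 0.09 each. For Fos, at 0.19, they were Htr1b and Grin2c at 0.09, Nupr1 at 0.10, and Acvrl1, Padi4 and Cldn13, for which the difference was 0.11, 0.11 and 0.11. The genes nearest Fos had means of 4.79 to 5.70, like Fos below the median of the probe set means. A small difference between such dim signals need not mean shared expression. For Jun, at 0.60, a search added after its values were seen gave Clstn1 at 0.32, Cemip2 at 0.33 and Hykk at 0.37.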

How the data were processed

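Log2 expression values of 18 Mouse Gene 1.0 ST arrays were used as deposited by the authors in 1 table. RMA and Partek are the tools named in the submitters' processing notes, with no version given there, and since the values run from 3.91 to 14.96 they were read as log2. Probe sets were named from the platform annotation: 21789 have 1 gene symbol, 1621 have several and 11989 are not listed there, and the last 2 kinds were tested but not named. Arrays have no read depth, so their number, 3 a group, limits the precision.

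With limma 3.58.1 in R 4.3.3, 1 mean per group was fitted over all 18 arrays, with 12 residual and 2.18 prior degrees of freedom. Contrasts between genotypes and subsets and the interaction (moderated F) were tested two-sided, p-values were adjusted by Benjamini-Hochberg over all 35399 probe sets, and a gene was called under 0.05. Intervals are at 95%. The 10 genes and the other lists were chosen with earlier results of these data known, so they give no independent support. Of the other lists, the text names at most 4 called genes per list and comparison by size, except in the average over subsets. Genes of the average over subsets and those most like Jun were chosen after their values were seen. Xist, Eif2s3y, Lyz2, Cd74, Runx3, Ncr1, Cd27, Itgam, Dusp1, Hspa1a, Srf and Zfp36 were named in any case.

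That arrays with equal replicate numbers are paired is not stated in the labels. The pairing was inferred from the correlation of their deviations from the group means. Between subsets this correlation was 0.213 to 0.642 in KO. In WT it was 0.218 to 0.456 for CD11b with CD27 or DP, and 0.440, 0.139 and -0.0094 for DP with CD27. The CD11b comparisons were therefore also fitted in pairs, with genotype and replicate number as a replicate block. Between KO and WT it was -0.0726 to 0.190, and the numbers do not pair the genotypes. The alternatives tried were another normalisation, a filter on dim probe sets, an intensity trend, array weights, the groups compared alone, 1 probe set per gene, replicate blocks, Xist as a covariate and arrays left out. Promoters are RefSeq sequences, searched for exact motif matches.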

Additional observations from a re-analysis of the deposited data

How the results depend on the processing

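The count of the 10 immediate early genes called was the result followed over the settings. In CD11b over CD27 of WT it was 1 (Junb) and became 2 (Junb and Ier2) under cyclic loess, under a filter on probe sets above the median mean, with array weights, with 1 probe set per gene, with a replicate block, with a random replicate block and with Xist as a covariate. It became 3 with the replicate block within genotype, and it ranged from 0 to 1 with single arrays left out, where the 1 was Ier2, without CD27 WT replicate 1. It was also 1 without the arrays of KO replicate 3. In CD11b over CD27 of KO it was 0 and became 3 with array weights (Fos, Junb and Ier2), 1 with the random replicate block (Fos) and 3 with the replicate block within genotype (Junb, Nr4a1 and Ier2), and it ranged from 0 to 1 with arrays left out, where the 1 was Atf3, without CD11b KO replicate 1. In CD11b over DP of WT it was 0, and 1 in the paired fit (Junb). Between KO and WT averaged over subsets it was 1 (Jun) and became 0 under the filter, where Jun was not among the 6 genes tested, and 0 with the arrays of a sample averaged first, which leaves 3 samples against 3. Between KO and WT in CD27 it was 0, and 1 (Jun) with array weights (limma adjusted p = 0.00418) and with the replicate block (limma adjusted p = 0.0325), although the numbers do not pair the genotypes. For Jun averaged over subsets, the adjusted p by limma otherwise lay between 0.000631 and 0.0185, and the replicate block gave 0.000899. No direction of a called gene reversed under the settings tried, and in the other comparisons the count stayed at 0.

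The number of probe sets called, from which the background shares come, moved more. Between KO and WT it was 2862 averaged over subsets, and 71 to 4377 over the settings other than arrays left out. In CD27 it was 321 (14 to 3974), in DP 140 (17 to 285) and in CD11b 457 (34 to 972). In CD11b over CD27 it was 734 in KO (146 to 2231) and 1771 in WT (1458 to 3865). In DP over CD27 it was 7 in KO (5 to 264) and 197 in WT (5 to 694). In CD11b over DP it was 182 in KO (3 to 650) and 186 in WT (73 to 851). The interaction gave 4 (1 to 39). Leaving out the CD11b KO arrays of replicates 1 and 3, leaving out arrays in the paired fit and for the other lists, and reading the arrays by Xist, were chosen after seeing the data. Another probe set of a gene could not be tried, since each has 1. Fos, Fosb, Jun and Atf3 lie on average below the median of the probe set means.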
